A study of Mus musculus with 2 samples.

Results

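The early progenitor regulator genes are 9 genes, Kit, Flt3, Hhex, Spi1, Bcl11a, Mef2c, Nfe2, Meis1 and Gfi1b, chosen by name from what they are known to do in blood progenitors. All probe sets annotated with exactly one of these symbols were taken, which gave 22 of the 45101 probe sets on the array, and 9 of the 18193 genes with a named probe set. They were read on 2 oligonucleotide arrays, 1 for thymocytes labelled Miz1 knockout and 1 for wild type thymocytes, both of the C57BL/6 background. The knockout allele is the delta-POZ allele of Miz1 (gene symbol Zbtb17), a zinc finger transcription factor, and it lacks the POZ domain through which such factors bind partners. The cells were sorted as negative for lineage markers and CD44 and positive for CD25, the DN3 stage at which T cell precursors rearrange the T cell receptor beta gene. Not given in the sources used here are the driver of the deletion, the ages of the mice and whether animals were pooled. With 1 array per genotype no difference below was tested and no value has an error between animals.

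Progenitors that seed the thymus still hold several blood lineages open. They carry the receptor tyrosine kinases Kit and Flt3 and express transcription factors of stem and progenitor cells, such as PU.1 (encoded by Spi1), Hhex, Mef2c, Bcl11a and Meis1. As Notch signalling and the factors TCF-1, GATA3 and BCL11B commit the cells to the T lineage, these genes are normally shut off before the DN3 stage. Nfe2 and Gfi1b encode factors best known from the megakaryocyte and erythroid lineages.

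Nfe2 was the 1 early progenitor regulator gene called 2-fold different against the floor used here, and it was higher in the knockout. Flt3 and Meis1 had wild-type readings above that floor and knockout readings under it, so their differences are known only as lower bounds. With the floor at the lower quartile they were called lower, at log2 ratios of -2.23 and -2.43, as were 13.9% of all genes measured at that floor. The Meis1 value comes from its brightest probe set, and the other 2 of its 3 probe sets read higher in the knockout. The 8 genes other than Nfe2 gave low signals on both arrays, and none of their 21 probe sets reached 3 times the floor used here. The floor of 394 is the median of all non-control signals; it is not a detection limit, and values under it were raised to it before log2 ratios of knockout over wild type were taken. Of several probe sets of a gene, the one with the largest mean of both arrays stands for it, and the gene is called measured where that mean exceeded the floor. By this rule 6 of the 9 genes were measured, with Nfe2 past 2-fold on the high side and none past 2-fold on the low side. A call needed the brighter reading to reach 2 times the floor. The probe sets standing for Flt3, Hhex, Spi1, Mef2c, Meis1 and Gfi1b stayed below that on both arrays, so these genes could not be called. Kit, at 749 in the wild type, could not be called lower. The floor thus largely fixed the absence of calls on the low side. Among all 10770 measured genes, 7.23% were past 2-fold on the high side and 5.65% on the low side. Among the 4653 of them with a mean signal up to 3 times the floor, these shares were 9.99% and 5.97%. The same shares are the background for the counts of the other gene lists below. The median log2 ratio was -0.01 over the 6 measured genes and 0.00 over all measured genes, and under median centring of the arrays it was -0.15 and -0.16. Of the 6 measured genes 3 had a positive and 3 a negative log2 ratio, so the median of so few genes does not describe a shared direction. Log2 ratios from different probe sets of 1 gene differed with an SD (root mean square within genes) of 0.57 across 4514 genes, and of 0.68 across 1651 genes when only probe sets with a mean signal up to 3 times the floor were kept. That spread lies within this pair of arrays and covers nothing between animals.

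**Figure D1:**
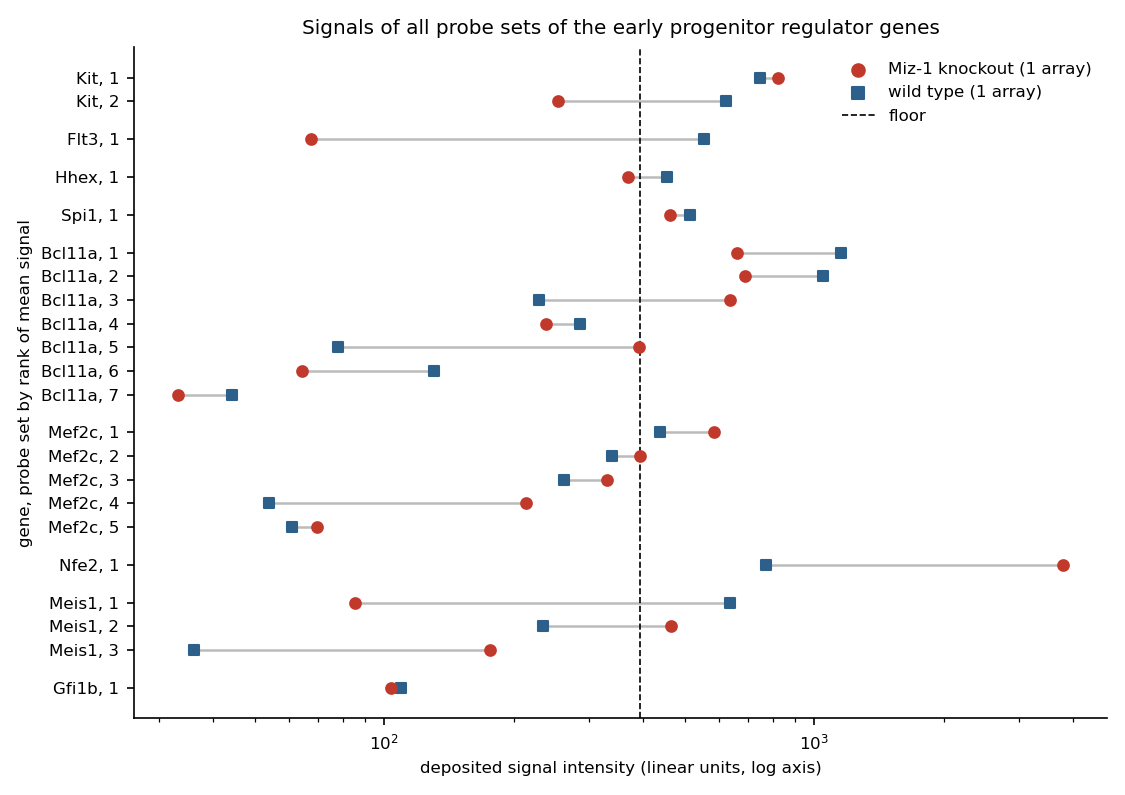
Deposited signal intensity (linear units on a log axis) of each of the 22 probe sets in the knockout (circles) and the wild type (squares), 1 array each, with probe sets numbered by mean signal within each gene and the floor of 394 as a dashed line. Nfe2 read 3783 against 771, while no probe set of the other genes exceeded 825 in the knockout or 1152 in the wild type.

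The labels of the arrays were set against marker genes. All 14 DN3 markers were measured. Il2ra, the gene of the sorted marker CD25, read 23018 on the knockout array and 4992 on the wild-type array, and Ptcra, the gene of the pre-T alpha chain, read 11518 and 7513. Cd44, which marks the stages before DN3, was not measured, with 331 and 424 by its brightest probe set. Zbtb17 read 1361 on the knockout array and 3042 on the wild-type array by its brighter probe set, and 610 and 47.6 by the other; the sources used here do not place these probes inside or outside the deleted part, so they do not check the genotype. Xist read 55300.0 on the knockout array and 423 on the wild-type array, whereas the Y-linked gene Kdm5d read 36.7 and 1782. The animals thus differed in sex, which cannot be told apart from genotype in any value given here.

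Kit and Flt3, the receptors for stem cell factor and for the Flt3 ligand, gave no call. Kit read 825 on the knockout array and 749 on the wild-type array by its brighter probe set, a log2 ratio of 0.14. Its second probe set read 253 and 623, with the knockout value under the floor, so that it was at least 1.58-fold lower. With the floor at the lower quartile, or with none, this probe set had a log2 ratio of -1.30. The 2 Kit probe sets therefore pointed in opposite directions, and the brighter one turned to -0.02 under median centring of the arrays. Flt3 was represented by a single probe set, which read 67.6 on the knockout array and 554 on the wild-type array. Its mean signal of 311 lay under the floor, and against the floor it was at least 1.41-fold lower in the knockout. Among the genes fixed as ligands and signalling partners of these receptors, 15 of 16 with a probe set were measured and 2 of them passed 2-fold, both on the high side. Their median log2 ratio was 0.29. Kitl, which encodes stem cell factor, read 539 and 652. Flt3l had no probe set of its own in the annotation used. Cblb, a ubiquitin ligase that limits receptor signalling, read 6967 on the knockout array and 3088 on the wild-type array, 2.26-fold higher, and its other 2 probe sets gave log2 ratios of 1.80 and 1.32. The adaptor gene Gab1 read 877 and 84.4, at least 2.23-fold higher, but its other 2 probe sets were under the floor on both arrays.

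Nfe2 encodes the larger subunit of NF-E2, a leucine zipper factor that binds DNA with a small Maf protein. Its single probe set read 3783 on the knockout array and 771 on the wild-type array, 4.90-fold higher, with a log2 ratio of 2.29. Both values were above the floor, at 9.60 and 1.96 times it. Nfe2 ranked 31st of the 10770 measured genes by log2 ratio, among the highest 0.288%. With 1 probe set there is no second reading of the gene, and more transcripts per cell cannot be told apart from more cells that carry them. The values of its relatives and partners follow. The related genes Nfe2l1 and Nfe2l2 had log2 ratios of 0.44 and 0.19. Of the small Maf genes, Mafk read 2379 on the knockout array and 2101 on the wild-type array, Mafg read 1010 and 1040, and Maff was not measured. Bach1, which competes for the same partners, had a log2 ratio of 0.10. Bach2, a repressor of the same family, read 1715 and 843, 2.03-fold higher, though not past 2-fold under the 3 other scalings. A second Bach2 probe set read 886 and 69.2, at least 2.25-fold higher.

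Gfi1b, a zinc finger repressor of the erythroid and megakaryocyte lineages, read 104 on the knockout array and 109 on the wild-type array, under the floor on both arrays. Its paralog Gfi1, which is active in developing T cells, read 4525 and 4347, a log2 ratio of 0.06. Markers of the lineages in which Nfe2 and Gfi1b are best known were mostly low. Of 10 megakaryocyte and platelet markers with a probe set, 4 were measured and 1 was at least 2-fold higher. That gene was Gata1, an X-linked transcription factor, which read 882 and 387, at least 2.24-fold higher. Itga2b read 717 on the knockout array and 1034 on the wild-type array. Itgb3 read 270 and 593, and Gp1bb read 841 and 894. Pf4, Ppbp, Tubb1 and Vwf were under the floor on both arrays. The summed signal of the 10 markers was 3946 on the knockout array and 4302 on the wild-type array. Of 5 erythroid markers 3 were measured and none differed by 2-fold in the deposited scaling, with sums of 3094 and 3297; Epor, at 422 and 826, passed 2-fold on the low side under the 3 other scalings. Hba-a2 read 1791 on the knockout array and 1618 on the wild-type array, and Hba-a1 read 522 and 481. Klf1 and Alas2 were under the floor on both arrays. Of 8 markers of mast cells, which carry Kit, 2 were measured, and Cpa3, which early T cell precursors also express, read 2003 and 887, 2.26-fold higher. The mast cell sums were 3677 and 1892, and Fcer1a, Ms4a2, Cma1, Mcpt4 and Hdc were under the floor on both arrays.

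Spi1 encodes PU.1, an ETS factor that directs myeloid and B cell fates and must be silenced in T cell precursors. It read 461 on the knockout array and 514 on the wild-type array, a log2 ratio of -0.16. Both readings stood just above the floor. Its close relative Spib, which is expressed at the DN3 stage, read 2125 and 2050, and the third member, Spic, was not measured. Of 18 myeloid markers and genes activated by PU.1, 6 were measured, of which 2 passed 2-fold on the high side and 1 on the low side, and their median log2 ratio was 0.05. Lyz2, the lysozyme gene of macrophages, read 2646 and 736, 3.59-fold higher, and Csf1r, the receptor for macrophage colony-stimulating factor, read 1204 and 529, 2.28-fold higher. The other 2 Csf1r probe sets gave a log2 ratio of 0.05 and one of at least 1.37, and Csf1r was not called with the mean of its probe sets. Cebpb read 747 and 1957, 2.62-fold lower. The summed signal of the 18 genes was 9583 on the knockout array and 8129 on the wild-type array. Of 9 B cell markers, 6 were measured, of which Vpreb1 passed 2-fold on the high side and Cd22 on the low side. Cd22 read 133 on the knockout array and 798 on the wild-type array, but its other probe set read 404 and 144. The sums of the 9 markers were 7455 and 4765. Cd79b, at 2789 and 1499, was the largest part of both sums. Vpreb1 did not pass 2-fold under the 3 other scalings, and neither it nor Cd22 did with the floor at the 60th percentile. By their brightest probe sets Ebf1 and Pax5 were under the floor on both arrays. Another Ebf1 probe set read 441 on the knockout array and 46.1 on the wild-type array. Of 10 dendritic cell markers 1 was measured, Cd74, at 619 and 668, with sums of 2550 and 3290. Of 10 NK and innate lymphoid markers 6 were measured, with sums of 9697 and 5967. Nkg7, at 4655 and 1942, was 2.40-fold higher and the largest part of both sums. Id2 read 1351 on the knockout array and 997 on the wild-type array. Prf1 read 1675 and 924, Gzmb read 713 and 241, Il2rb read 281 and 546, and Klrd1 read 232 and 683. Eomes, Tbx21 and Zbtb16 were under the floor on both arrays. Of 8 thymic stromal markers 3 were measured and none differed by 2-fold, with sums of 7151 and 4690. Epcam, at 4947 and 2604, was the largest part of both sums, while its other probe set read 983 and 1132. Krt5 read 756 on the knockout array and 863 on the wild-type array. Col1a1 read 634 and 274, with its other probe set under the floor on both arrays. Krt8, Foxn1, Col3a1 and Pecam1 were under the floor on both arrays. The part of these other cells in the readings of the early progenitor regulator genes was not tested.

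Hhex, a homeobox gene of haematopoietic progenitors, read 370 on the knockout array and 454 on the wild-type array. The knockout value lay just below the floor, so the difference is at least 1.15-fold lower. Bcl11a, a zinc finger gene needed for early lymphoid development, had 7 probe sets, of which 3 were measured. The brightest read 661 on the knockout array and 1152 on the wild-type array, a log2 ratio of -0.80, and the next read 690 and 1050, a log2 ratio of -0.61. The third measured probe set read 637 and 229 and was at least 1.62-fold higher in the knockout. The probe sets of Bcl11a thus disagreed in direction, and its other 4 were under the floor on both arrays. Its paralog Bcl11b, the commitment factor of the T lineage, read 40797 and 40159, a log2 ratio of 0.02, with up to 0.86 among its 4 probe sets.

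Mef2c encodes a MADS box factor of lymphoid and myeloid progenitors. It read 586 on the knockout array and 438 on the wild-type array by its brightest probe set, which is a log2 ratio of 0.42. All 5 Mef2c probe sets read higher in the knockout, but the other 4 were under the floor on both arrays. The related genes Mef2a and Mef2d had log2 ratios of -0.36 and -0.23 by their brightest probe sets. Their measured probe sets disagreed, from -0.58 to at least 1.04 for Mef2a and from -0.46 to 0.60 for Mef2d. Mef2b was not measured, at 597 and 112. Meis1, a homeobox gene whose product works with HOX and PBX proteins in stem cells, had 3 probe sets and none was measured. They read 85.3 and 637, 463 and 235, and 176 and 36.2 in the knockout and the wild type, so that 1 was lower and 2 were higher in the knockout. Against the floor the first was at least 1.62-fold lower. Of its relatives, Meis2 read 610 and 423, a log2 ratio of 0.53, and Meis3 was under the floor on both arrays. Over all 29 paralogs and partners with a probe set, 21 were measured and Bach2 passed 2-fold in the deposited scaling; the median log2 ratio was 0.02. Hdac5, at 133 and 769, passed 2-fold on the low side under the 3 other scalings.

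**Figure D2:**
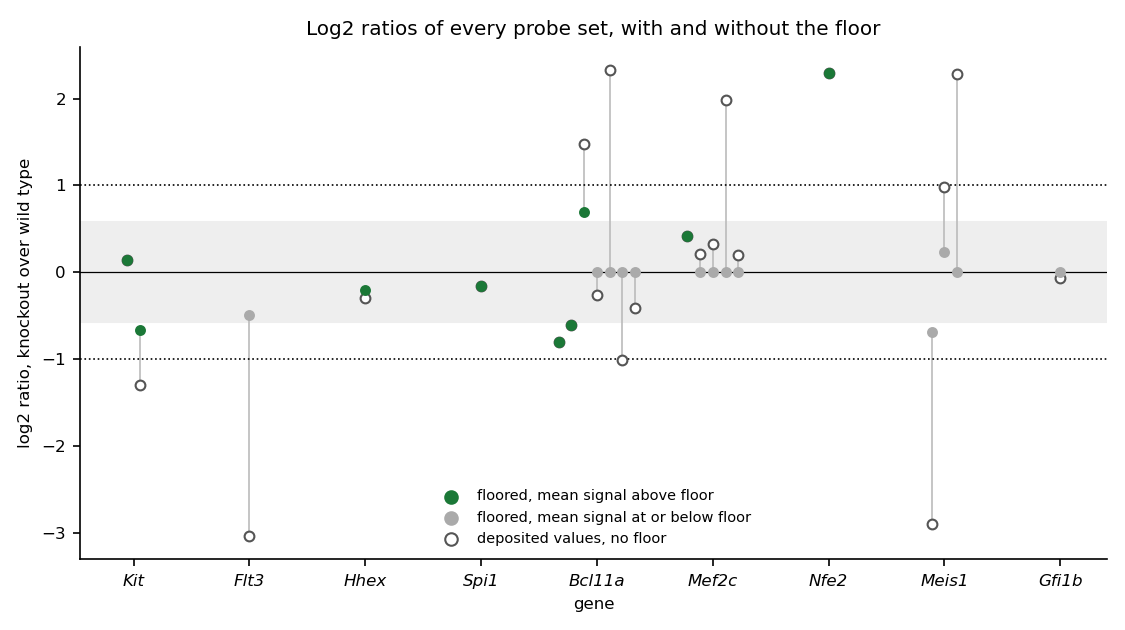
Log2 ratio of knockout over wild type for each probe set, grouped by gene, with the floor (filled, green where the mean signal exceeded it and grey otherwise) and from the deposited values without it (open); dotted lines mark 2-fold and the grey band is 0.57 on either side of 0, the SD between probe sets of 1 gene. Without the floor 11 probe sets lay above 0 and 11 below it, and probe sets of Kit, Bcl11a and Meis1 lay on both sides.

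Other genes of stem and progenitor cells were likewise mostly dim. Of 17 with a probe set, 7 were measured and 2 of these passed 2-fold, both on the high side, where 7.23% of all measured genes did so. Hoxa7, at 170 on the knockout array and 748 on the wild-type array, passed 2-fold on the low side under median centring and lowess normalization. The median log2 ratio of the 7 was -0.19. Mycn, a MYC family gene of early T cell precursors, read 2571 on the knockout array and 718 on the wild-type array, 3.58-fold higher, and another measured probe set gave a log2 ratio of 1.15. Erg, an ETS factor gene, read 888 and 199, at least 2.25-fold higher, whereas its other probe set was under the floor on both arrays. Cd34, a stem cell marker, was under the floor on both arrays. Among these genes, then, Mycn was the one called with both readings above the floor, as Nfe2 was among the early progenitor regulator genes.

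The T lineage commitment factors were bright on both arrays. All 13 with a probe set were measured, of which Myb passed 2-fold on the high side and Satb1 on the low side. The median log2 ratio was 0.06. Gata3 read 3934 on the knockout array and 3529 on the wild-type array. Myb read 49983 and 22628, 2.21-fold higher, although its other 2 probe sets gave 0.76 and 0.63. Satb1, a chromatin organiser, read 17799 and 45586, 2.56-fold lower, and its measured probe sets ranged from -1.65 to 0.01. Of the 14 DN3 markers, 4 passed 2-fold, all on the high side, where 7.23% of all measured genes did so, and the median was 0.76. They were Dtx1, at 14456 and 2841, Il2ra, Cd3g and Cd3d. The Dtx1 call rests on a probe set of shared sequence, and its other probe set was under the floor on both arrays. Under median centring 2 of the 14 DN3 markers passed 2-fold, whereas 6 did under quantile normalization and 6 under lowess normalization. The commitment factors and DN3 markers were thus above the floor on both arrays while most early progenitor regulators lay near or under it.

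**Figure D3:**
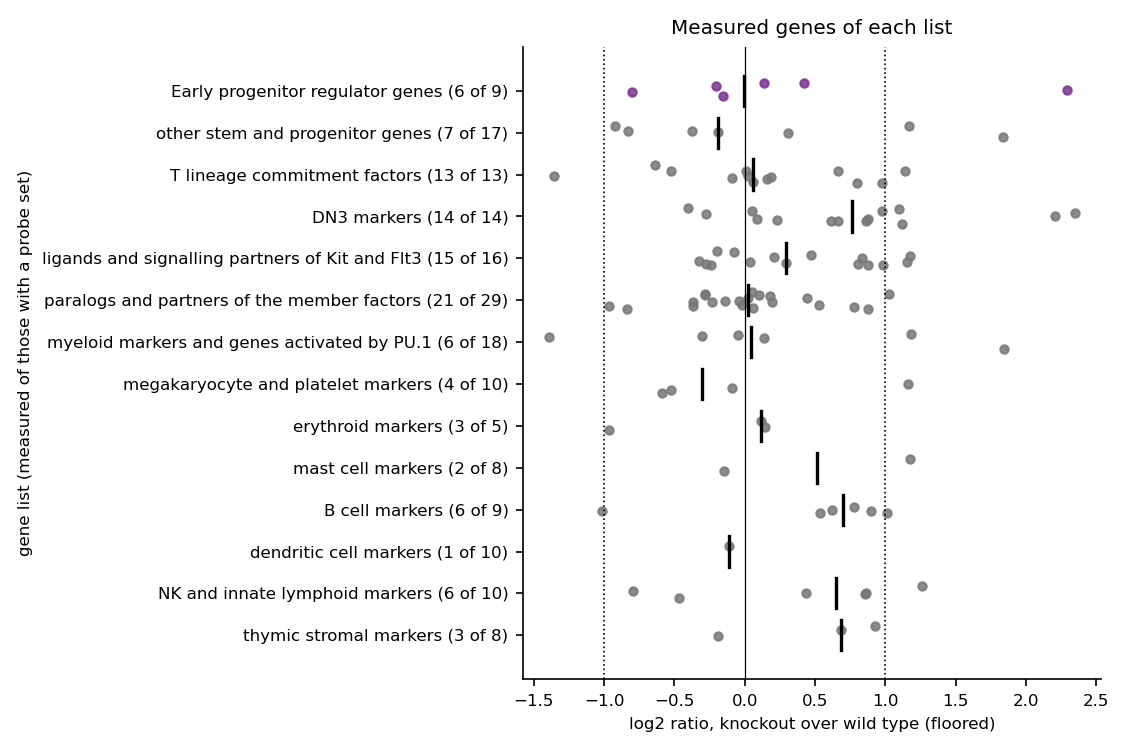
Log2 ratio of knockout over wild type, with the floor, for each measured gene of the early progenitor regulators (purple) and of the other lists (grey); points are jittered vertically, black bars are list medians, dotted lines mark 2-fold and the counts give measured genes of those with a probe set. Of the 6 measured early progenitor regulators, 5 lay between -0.80 and 0.42 and Nfe2 lay at 2.29.

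Promoter sequences were at hand for 7 of the 9 genes, with 10 start sites in all, in the RefSeq-based table of build GRCm38.p6; Spi1 and Nfe2 were not in it. Each window runs from 250 bases before to 50 after a start site. It was searched on both strands for 5 short motifs. They were AGATAA, bound by GATA factors, the letters GAGGAA, bound by PU.1 and other ETS factors, and TGAGTCA, the core site of NF-E2 and AP-1. The remaining motifs were TGACAG, bound by MEIS factors, and the letters ATCGAT, reported for binding of Miz-1. None of these motifs overlapped another in the windows. GAGGAA was found in 4 of the 10 windows, those of Kit and Mef2c, compared with 28.3% of all 32851 promoters in the table. The 2 Kit windows start 4 bases apart and share their match, and 2 of the 3 Mef2c windows held one. The other motifs were not found in these windows. Over all promoters the GATA motif is held by 11.2%, the NF-E2 motif by 5.20%, the MEIS motif by 19.2% and the Miz-1 motif by 0.925%. The 250 bases before the first start site of Kit and of Mef2c are shown because they hold the matches, with the motif in capitals. A match describes the letters and is not a binding site.
Kit, chr5:75574737-75574986, plus strand: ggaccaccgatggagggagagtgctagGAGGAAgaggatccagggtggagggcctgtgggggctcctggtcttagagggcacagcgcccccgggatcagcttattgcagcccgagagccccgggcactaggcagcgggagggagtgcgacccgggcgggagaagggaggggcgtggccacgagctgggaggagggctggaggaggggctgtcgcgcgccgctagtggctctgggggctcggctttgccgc
Mef2c, chr13:83503784-83504033, plus strand: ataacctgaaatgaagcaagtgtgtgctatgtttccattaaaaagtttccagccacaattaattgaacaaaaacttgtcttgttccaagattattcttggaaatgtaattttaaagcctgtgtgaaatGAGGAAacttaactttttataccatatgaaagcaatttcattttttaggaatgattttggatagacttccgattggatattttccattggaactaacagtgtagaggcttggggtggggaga

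**Figure D4:**
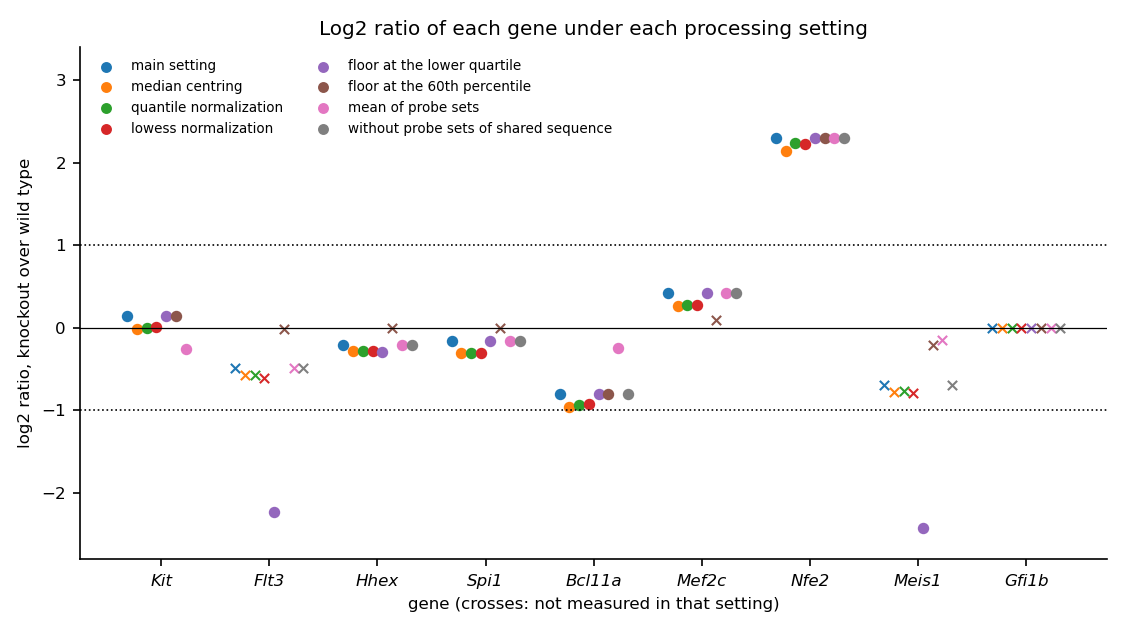
Log2 ratio of each early progenitor regulator gene in the main setting and in 7 other processing settings (colours); crosses are genes whose mean signal was at or below the floor of that setting, and dotted lines mark 2-fold. Nfe2 stayed between 2.14 and 2.29, while Flt3 and Meis1 passed -1 only with the floor at the lower quartile, at -2.23 and -2.43.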

How the data were processed

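Per the labels' protocols, RNA of the sorted cells was amplified with a biotin label before staining. The authors deposited 1 linear signal intensity for each probe set; the submitters' processing notes name GCOS 1.4, without settings. Both arrays share a mean of 1000 once 2% is trimmed at each end, which shows a common scaling before deposit. Detection calls and scanner files were not used here, and the number of arrays limits the precision. Of 45101 probe sets, 64 control ones were left out; 34958 have 1 gene symbol, 932 have several and were not named, and 9160 others are not in the annotation used. The RefSeq table of GRCm38.p6 gave the current symbol for the 34754 of these whose gene identifier it holds.

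Values below the floor, the median of all non-control values, were raised to it, and a difference was called at 2-fold or more if the brighter value exceeded the floor. A fold against a floored value is a lower bound, written as at least that size. Scripts ran in Python 3.11.15 with statsmodels 0.14.6 and were tested on simulated data. The members, lists, motifs and naming rule were chosen with earlier results of these data known. Genes named are all members, their paralogs, Kitl, Flt3l, Cd44, Cd34, Zbtb17, and up to the 2 highest and 2 lowest genes of each other list past 2-fold. The rule also covered all DN3 markers, but only those past 2-fold, Ptcra and Spib are given with values. The remaining DN3 markers enter only the counts and the median. Other list genes, and the neighbours of Nfe2, were chosen after their values were seen. Notch1, Hes1, Gfi1, Bcl11b, Spib and Irf8 each stand in 2 lists. Alternatives were median centring, quantile and lowess normalization, other floors or no floor, the mean of a gene's measured probe sets, and leaving out probe sets of shared sequence.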

Additional observations from a re-analysis of the deposited data

How the results depend on the processing

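Nfe2 stayed at least 2-fold higher in all 7 alternative settings, with log2 ratios from 2.14 under median centring to 2.29. The count of early progenitor regulator genes at least 2-fold higher was 1 in each of them. The count at least 2-fold lower was 0 in 6 of them and 2 with the floor at the lower quartile, 119, where Flt3 (-2.23) and Meis1 (-2.43) passed 2-fold because their knockout readings were raised less; at that floor 13.9% of measured genes were 2-fold lower. The median of the measured genes among the 9 ranged from -0.23 (lower quartile floor, 8 genes) to 0.14 (60th percentile floor, 3 genes). Kit changed sign without passing 2-fold, to -0.02 under median centring and -0.26 with the mean of its probe sets, and had no value without probe sets of shared sequence. Median centring moved the median of all measured genes to -0.16, and the share called was then 5.25% higher and 8.60% lower. Of the values for single genes, probe sets and other lists over all alternatives, 410 moved by less than the SD of 0.57 (or, for counts, by at most 1.5 times) and 68 by more, apart from Flt3 and Meis1; Myb, Satb1, Bach2, Vpreb1 and Csf1r were each called in only some settings, and Erg, Gab1, Gata1 and Cd22 were not called with the floor at the 60th percentile. Dtx1 and Gab1 were not called without probe sets of shared sequence, and Cd3d and Cd3g were not called under median centring. The spread between animals is unknown at 1 array per genotype, and signals near the floor limit all members but Nfe2. No paired analysis was possible because each genotype has 1 array.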

Other observations

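The genes that lie next to Nfe2 in the RefSeq gene order were read after its value was known. Of the 5 protein-coding genes on each side, 7 were measured and 3 of these passed 2-fold, all on the high side, where 7.23% of all measured genes did so. In settings added after seeing the data, none of the 7 passed 2-fold under median centring, quantile or lowess normalization, and 1 of 5 did with the floor at the 60th percentile. The immediate neighbours Hnrnpa1 and Copz1 had log2 ratios of -0.05 and 0.50. The 3 higher genes were Smug1, a DNA repair glycosylase gene, at 1215 on the knockout array and 581 on the wild-type array, Zfp385a at 810 and 64.3, and the integrin gene Itga5 at 823 and 255. The last 2 had wild-type readings under the floor and log2 ratios of at least 1.04 and 1.06.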
